A study of Mus musculus with 6 samples.

Results

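The 9 genes described here move cholesterol into, within and out of cells: Lrp1 and Scarb1 (receptors that take lipid from lipoproteins), Mylip (a regulator of lipoprotein receptors), Nr1h3 and Nr1h2 (the liver X receptors), Abca1 and Abcg1 (efflux transporters) and Npc1 and Npc2 (exporters of cholesterol from lysosomes). They were chosen by name for their place in this pathway and not by their values, as genes of interest in hearts without apolipoprotein E, the ligand through which many lipoprotein remnants are taken up. They are 9 of 36380 genes with a value, and all 9 were among the 11356 genes that passed a filter on low values and were tested. RNA was measured by sequencing in hearts of mice aged 32 weeks. Mice without apolipoprotein E and also without TIMP3, a tissue inhibitor of metalloproteinases (ApoE-/- Timp3-/-), gave 3 libraries, numbered 4, 5 and 6. Their littermate controls (ApoE-/-) gave libraries 1, 2 and 3, so both groups lack apolipoprotein E and hearts with intact Apoe were not analysed here. Beyond the word littermates the labels do not say how the animals relate, and the p-values therefore measure the spread between these 6 libraries, which may be technical. The question put by the design is whether loss of Timp3, whose product inhibits proteases that cut the matrix and shed membrane proteins, goes with a difference in the heart's RNA on an ApoE-/- background.

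Cells take up cholesterol from lipoproteins through endocytic lipoprotein receptors and through scavenger receptors, and the lysosomal pair NPC2 and NPC1 hands the freed cholesterol on to other membranes. When sterols are plentiful, oxysterols activate the liver X receptors, which raise the transcription of the efflux transporters ABCA1 and ABCG1 and of Mylip, whose product marks lipoprotein receptors for degradation. The heart holds muscle cells, endothelium, fibroblasts and resident macrophages, and how far each of them uses these genes was not measured here. In RNA from a heart, which mixes these cells, fewer cells of a type and less RNA per cell cannot be told apart.

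The values are FPKM, fragments counted per kilobase of transcript and relative to all mapped fragments, summed over the transcripts of a gene. Values of single libraries are given as deposited unless they are called scaled, which means divided by a factor of 0.897 to 1.17 that brings the libraries to a common level. Depth, judged from coverage times transcript length, was 910, 732 and 683 megabases of aligned sequence for libraries 4, 5 and 6, against 654, 1339 and 827 for libraries 1, 2 and 3. Markers of ventricular muscle summed to a scaled FPKM of 16299 to 22932 in ApoE-/- Timp3-/- hearts and of 13207 to 18393 in ApoE-/- hearts. Timp3 itself averaged a scaled FPKM of 26.7 ± 6.12 in ApoE-/- Timp3-/- hearts and 40.6 ± 3.62 in ApoE-/- hearts (SD, n = 3 each), lower but not lost and without passing the test (adjusted p of 0.29 by limma), and which stretch of the gene the mutant allele lacks was not given in the sources used here. Apoe averaged 2.52 ± 0.82 in ApoE-/- Timp3-/- hearts and 2.97 ± 0.651 in ApoE-/- hearts (SD, n = 3 each). Some libraries stood apart in cell content. Library 1 (ApoE-/-) had the highest summed adipocyte markers, a scaled FPKM of 168 against 3.93 to 4.51 in libraries 2 and 3 and 1.16 to 30.5 in ApoE-/- Timp3-/- hearts. Library 4 (ApoE-/- Timp3-/-) had the highest summed red blood cell markers, a scaled FPKM of 12228 against 471 and 1191 in libraries 5 and 6 and 113 to 488 in ApoE-/- hearts. Each member's difference is given below also with single libraries left out, as the range over the 6 such fits.

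None of the 9 genes passed the test between genotypes. At an adjusted p under 0.05 by limma, 0 of 9 were called, against 5 of all 11356 genes (0.044%). At an unadjusted p under 0.05, 0 of 9 were reached, against 12.2% of all genes. The scaled values of the groups overlapped for each of the 9, whereas they did not overlap for 19.2% of all genes (9.22% with ApoE-/- Timp3-/- hearts lower). With every library scaled to a fixed total, which moved the median of all genes to -0.16, Lrp1, Scarb1, Nr1h3 and Npc2 did not overlap and were lower, 4 of 9 against 22.0% of all genes. On that scale Lrp1 and Scarb1 also had an unadjusted p under 0.05 by limma, 2 of 9 against 13.8% of all genes in that direction. The log2 difference (ApoE-/- Timp3-/- minus ApoE-/-) was below 0 for 7 of the 9 and above 0 for Nr1h2 and Npc1, and Nr1h2 turned to -0.04 when scaled to a fixed total. The members' median difference was -0.13, and that of all genes tested was -0.006. Replicates of 1 genotype varied by a median SD of 0.25 on the log2 scale over the 9 genes and of 0.20 over all genes. The median size of the differences was 0.24 for the members and 0.16 for all genes. The plots of scaled FPKM by library and of the differences with their intervals show both sides of this comparison.

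**Figure D1:**
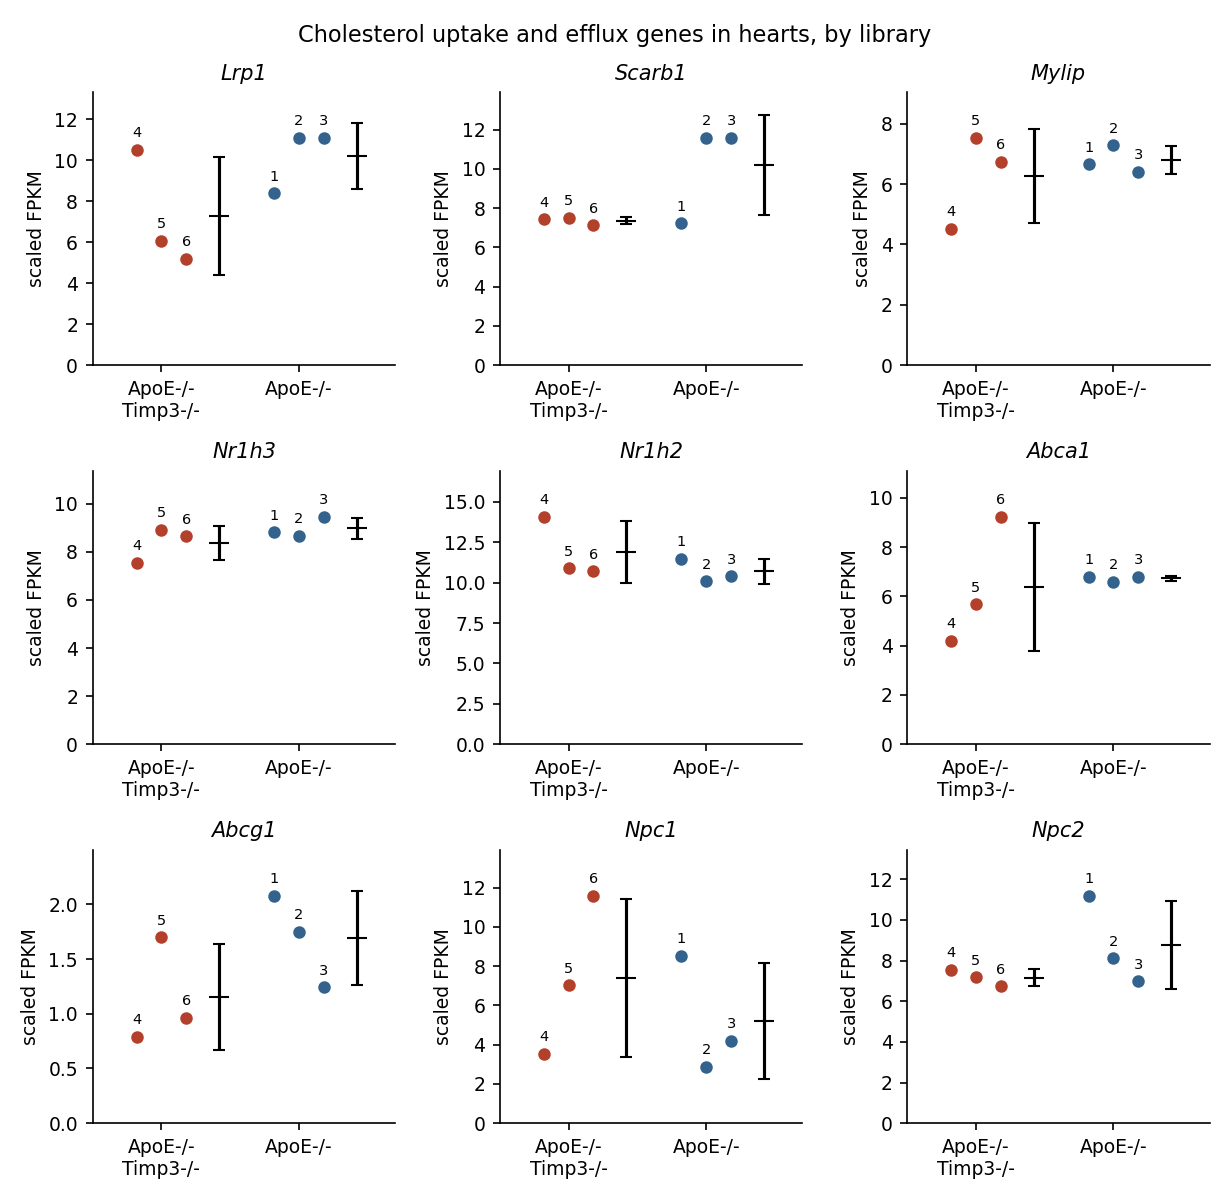
Scaled FPKM (vertical axes, from 0) of each of the 9 genes in libraries 4, 5 and 6 (ApoE-/- Timp3-/-, red) and libraries 1, 2 and 3 (ApoE-/-, blue); points are libraries and black bars are the mean ± SD of each group (n = 3). Points of the groups overlap in each panel, with the widest spread for Npc1, whose scaled FPKM ran between 2.87 and 11.6.

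**Figure D2:**
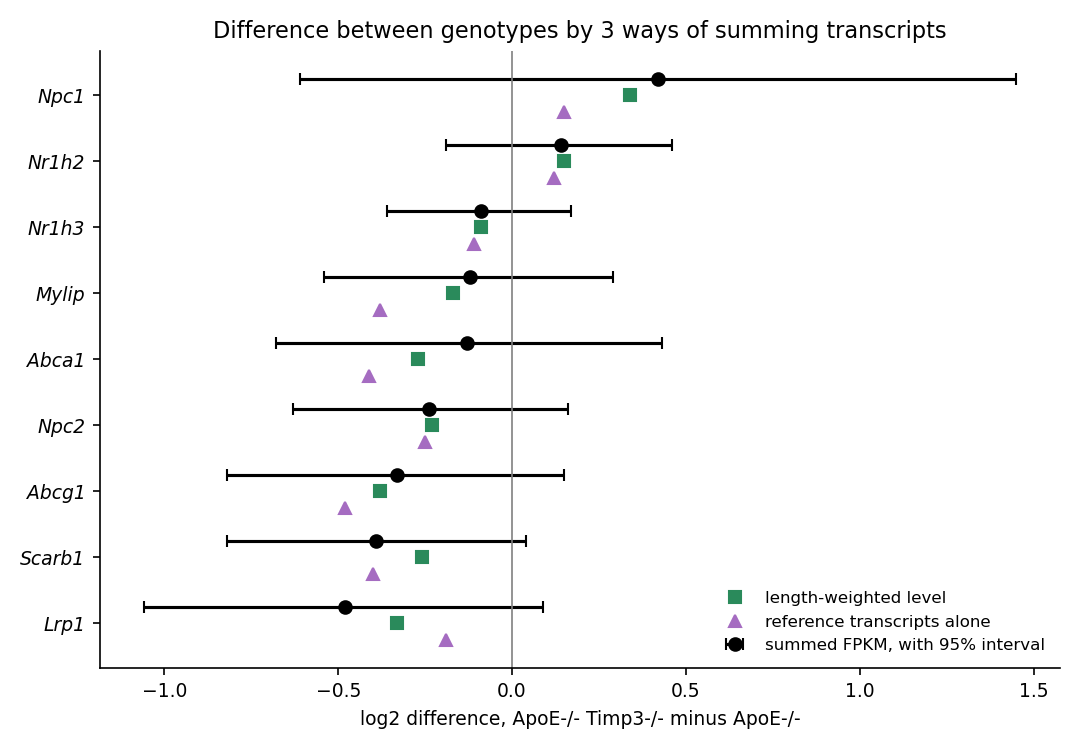
Log2 difference of ApoE-/- Timp3-/- minus ApoE-/- for each gene (horizontal axis), from the FPKM summed over all transcripts (black circles with 95% intervals), from a level weighted by transcript length (green squares) and from reference transcripts alone (purple triangles). Each of the 9 intervals crosses 0, with Lrp1 at -0.48 at one end and Npc1 at 0.42 at the other.

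Averaged over the 6 libraries, Nr1h2 had the highest scaled FPKM of the 9 (11.3, with libraries from 10.1 to 14.1). Scarb1 at 8.76, Lrp1 at 8.74, Nr1h3 at 8.67 and Npc2 at 7.96 followed, then Abca1 at 6.55, Mylip at 6.52 and Npc1 at 6.3. Abcg1 was lowest at 1.42, with libraries from 0.789 to 2.08. Neighbours in this order overlapped in their libraries apart from Npc1 and Abcg1, since the lowest Npc1 library, at 2.87, lay above the highest Abcg1 library. The receptor pair Nr1h3 and Nr1h2 varied least, with a highest library 1.26 and 1.4 times the lowest, and Npc1 varied most, at 4.04 times. These sums count a short assembled piece as much as a full transcript. Such pieces held much of the Lrp1, Abca1 and Npc1 sums in some or all libraries, so the order may differ on the length-weighted level.

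Lrp1 encodes a very large endocytic lipoprotein receptor that takes up apolipoprotein E-bearing remnants, protease complexes and many other ligands, TIMP3 among them. Lrp1 (ENSMUSG00000040249, chr10:126975217-127058204, minus strand, NCBIM37) had 10.8, 5.44 and 5.25 FPKM in libraries 4, 5 and 6 (ApoE-/- Timp3-/-), against 9.79, 11.2 and 10.3 FPKM in libraries 1, 2 and 3 (ApoE-/-). Libraries 5 and 6 were lower than every control, and library 4 was as high as the controls. Scaled, Lrp1 averaged 7.27 ± 2.87 in ApoE-/- Timp3-/- hearts and 10.2 ± 1.59 in ApoE-/- hearts (SD, n = 3 each), a log2 difference of -0.48 ± 0.24 (SE) with a 95% interval of -1.06 to 0.09 and an adjusted p of 0.50 by limma. The difference was -0.75 with library 4 left out (adjusted p of 0.24 by limma) and -0.30 with library 6 left out (adjusted p of 0.71), the ends of its range.

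The high Lrp1 value of library 4 came mostly from a short piece. In that library 73.4% of the summed FPKM belonged to an assembled transcript of 1620 nt at the 3′ end, whereas the reference transcript (ENSMUST00000049149, 14888 nt) was at 2.87 FPKM. Similar pieces held 64.8% of the sum in library 2 (2704 nt) and 62.4% in library 3 (3910 nt), and libraries 1, 5 and 6 had no such piece. Libraries 2, 3 and 4 were also the deepest, at 1339, 827 and 910 megabases, a division that crosses the genotypes. The part of depth in these pieces was not tested. Since FPKM is already divided by length, a short piece counts as much in a sum as a full transcript, so a length-weighted level was also computed, which was decided on after seeing the values. On it Lrp1 was at 3.73, 5.44 and 5.25 in libraries 4, 5 and 6, against 9.79, 5.26 and 5.55 in libraries 1, 2 and 3. On this scale library 1 stood alone above the other 5 libraries, and the log2 difference was -0.33 (adjusted p of 0.57 by limma). From the reference transcript alone it was -0.19.

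The ends of the transcript differed in what they showed. Over the fifth of the Lrp1 transcript at its 3′ end, the level was 6.42, 5.44 and 5.25 FPKM in libraries 4, 5 and 6, against 9.79, 9.55 and 10.3 FPKM in libraries 1, 2 and 3. There each ApoE-/- Timp3-/- heart lay below each ApoE-/- heart, as did 12.2% of the 2457 tested genes with a transcript of at least 4000 nt. Over the fifth at the 5′ end, the level was 2.87, 5.44 and 5.25 FPKM in libraries 4, 5 and 6, against 9.79, 3.94 and 3.86 FPKM in libraries 1, 2 and 3, and the groups overlapped. The 3′ stretch was picked after its values were seen and was not tested. The contrast there depends on the width of the stretch, since the library 4 piece of 1620 nt is shorter than the fifth. Over that piece library 4 was at 10.8 FPKM, among the summed values of the controls (9.79, 11.2 and 10.3 FPKM in libraries 1, 2 and 3). Fibroblast markers had the sign of the Lrp1 difference, with 10 of 10 below 0. Of these, 6 had an unadjusted p under 0.05 by limma, against 5.22% lower and 6.93% higher among all genes. Their summed scaled FPKM was 263 to 310 in ApoE-/- Timp3-/- hearts and 307 to 421 in ApoE-/- hearts. By library, their sum was lowest in library 4 (263), where summed Lrp1 was as high as in the controls. Length-weighted Lrp1 was lowest in library 4 (3.73) and highest in library 1 (9.79), where the fibroblast sum was also highest (421). Of 8 tested markers of smooth muscle and pericytes, 4 of those with an unadjusted p under 0.05 were lower and 1 was higher, with summed scaled FPKM of 268 to 313 in ApoE-/- Timp3-/- hearts and 264 to 381 in ApoE-/- hearts. The part of these cells in the Lrp1 values was not tested.

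**Figure D3:**
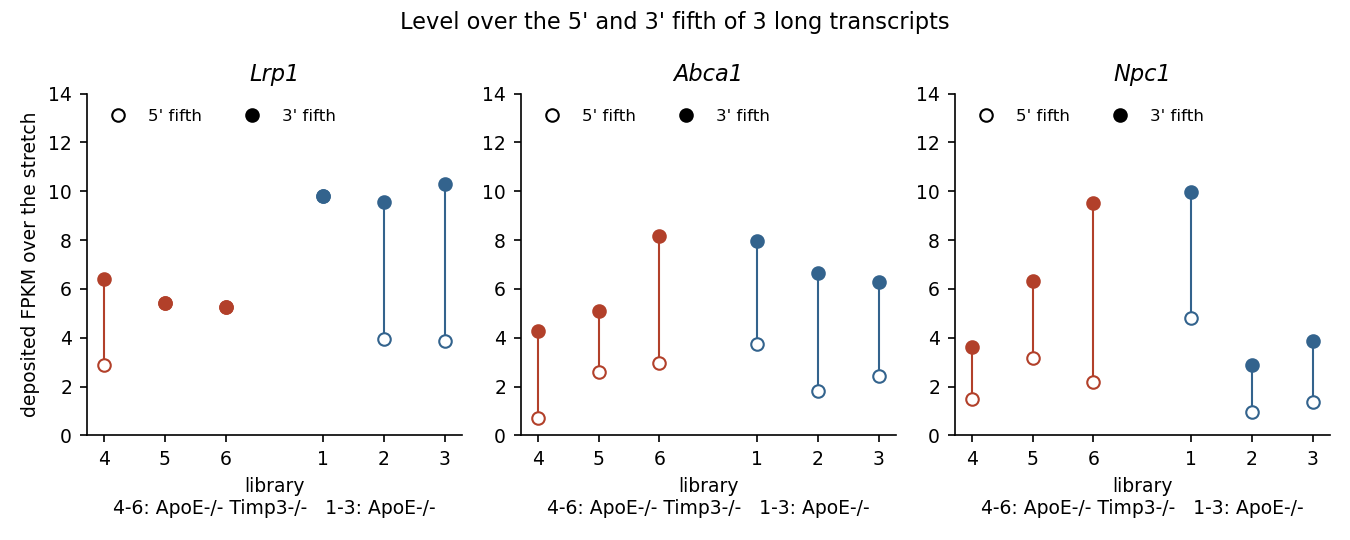
Deposited FPKM over the fifth of the reference transcript at its 5′ end (open circles) and at its 3′ end (filled circles) for Lrp1, Abca1 and Npc1, by library, with ApoE-/- Timp3-/- libraries 4 to 6 in red and ApoE-/- libraries 1 to 3 in blue. The 3′ end of Lrp1 sits between 5.25 and 6.42 FPKM in ApoE-/- Timp3-/- hearts and between 9.55 and 10.3 FPKM in ApoE-/- hearts, while the 5′ ends overlap.

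Scarb1 encodes scavenger receptor BI, the HDL receptor that takes cholesteryl ester from the particle without engulfing it. Scarb1 (ENSMUSG00000037936, chr5:125757457-125821464, minus strand, NCBIM37) had 7.61, 6.75 and 7.23 FPKM in libraries 4, 5 and 6 (ApoE-/- Timp3-/-), against 8.45, 11.7 and 10.7 FPKM in libraries 1, 2 and 3 (ApoE-/-). As deposited, each ApoE-/- Timp3-/- heart was below each ApoE-/- heart, which also held for 9.67% of all genes tested. Scaled, the values were 7.44, 7.52 and 7.14 in ApoE-/- Timp3-/- hearts, against 7.23, 11.6 and 11.6 in ApoE-/- hearts, so that library 1 fell among the ApoE-/- Timp3-/- hearts and the groups overlapped. The means were 7.37 ± 0.197 in ApoE-/- Timp3-/- hearts and 10.2 ± 2.53 in ApoE-/- hearts (SD, n = 3 each), a log2 difference of -0.39 ± 0.18 (SE) with a 95% interval of -0.82 to 0.04 and an adjusted p of 0.46 by limma, the smallest of the 9 genes. The difference was -0.59 with library 1 left out (adjusted p of 0.30 by limma) and -0.28 with library 2 left out (adjusted p of 0.65), the ends of its range. Endothelial markers had 11 of 12 differences below 0. Of these, 3 had an unadjusted p under 0.05 by limma (Cdh5, Tek and Kdr), against 5.22% of all genes in that direction. The endothelial markers' summed scaled FPKM was 197 to 240 in ApoE-/- Timp3-/- hearts and 223 to 288 in ApoE-/- hearts. Their part in the Scarb1 values was not tested.

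Of all tested genes, the 3 whose pattern over the 6 libraries lay nearest to Scarb1 were Xirp1, Akr1c14 and Zfp651, at root mean square distances of 0.057, 0.059 and 0.070 on the log2 scale. Xirp1, which encodes an actin-binding protein of heart muscle cell junctions, had a scaled FPKM of 12.9, 14.7 and 13.6 in ApoE-/- Timp3-/- hearts, against 12.8, 20.7 and 20.1 in ApoE-/- hearts. As in Scarb1, libraries 2 and 3 were high and library 1 lay with the ApoE-/- Timp3-/- hearts.

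Scarb1 makes 2 main messages, which differ in whether the next-to-last exon, exon 12, is kept, and so in the cytoplasmic tail of the receptor (known as SR-BI and SR-BII). The junctions are shown because the values below turn on which of these messages was present. The lines give the last 24 nt before the junction in lower case and, in capitals, the whole of exon 12 (129 nt, chr5:125281105-125281233 in GRCm38, minus strand, ending in the stop codon) or the first 24 nt of the last exon, from the GENCODE M21 transcripts.
Scarb1 with exon 12: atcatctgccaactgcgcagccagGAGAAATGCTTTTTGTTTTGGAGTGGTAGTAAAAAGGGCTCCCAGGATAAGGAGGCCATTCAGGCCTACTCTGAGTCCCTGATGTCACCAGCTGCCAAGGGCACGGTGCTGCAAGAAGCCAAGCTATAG
Scarb1 without exon 12: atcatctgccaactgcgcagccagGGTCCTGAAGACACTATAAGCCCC

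The message with exon 12 (ENSMUST00000086075) was at 4.50, 6.75 and 5.66 FPKM in libraries 4, 5 and 6 (ApoE-/- Timp3-/-), against 1.71, 6.25 and 4.46 FPKM in libraries 1, 2 and 3 (ApoE-/-). The message without it (ENSMUST00000111390) was at 3.12, 0 and 1.57 FPKM in libraries 4, 5 and 6, against 6.73, 5.47 and 3.16 FPKM in libraries 1, 2 and 3. A partial transcript of 823 nt without exon 12 was listed at 3.09 FPKM in library 3 and at 0 in the other 5. The form with exon 12 thus overlapped between the groups, and the full-length form without it was lower in each ApoE-/- Timp3-/- heart, although library 4, at 3.12, all but met library 3, at 3.16. Its log2 difference of -1.41 had an adjusted p of 0.57 by limma in the fit over 12456 reference transcripts, and that of the form with exon 12 was 0.51 with an adjusted p of 0.79.

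Transcripts without exon 12 made up 40.9%, 0% and 21.7% of Scarb1 FPKM in libraries 4, 5 and 6, against 79.7%, 46.6% and 58.3% in libraries 1, 2 and 3. The groups did not overlap. In genes with more than 1 transcript in use, the share of a single transcript did not overlap for 8.98% of 6772, an unlike measure, since the Scarb1 share pools 2 transcripts. As a single transcript, ENSMUST00000111390 held 3.16 of 10.7 FPKM in library 3 and 3.12 of 7.61 FPKM in library 4, and its share overlapped between the groups. Without the partial transcript, library 3 came to 41.4%, next to the 40.9% of library 4. The share was chosen after its values were seen. A two-sided exact permutation test gave a p of 0.1, below which 3 against 3 libraries cannot go. Any share without overlap gives this p, so the test could not decide for a share chosen in this way. Cufflinks divides reads that fit several transcripts by an estimate, and a listed 0 such as that of library 5 can be a failed estimate.

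**Figure D4:**
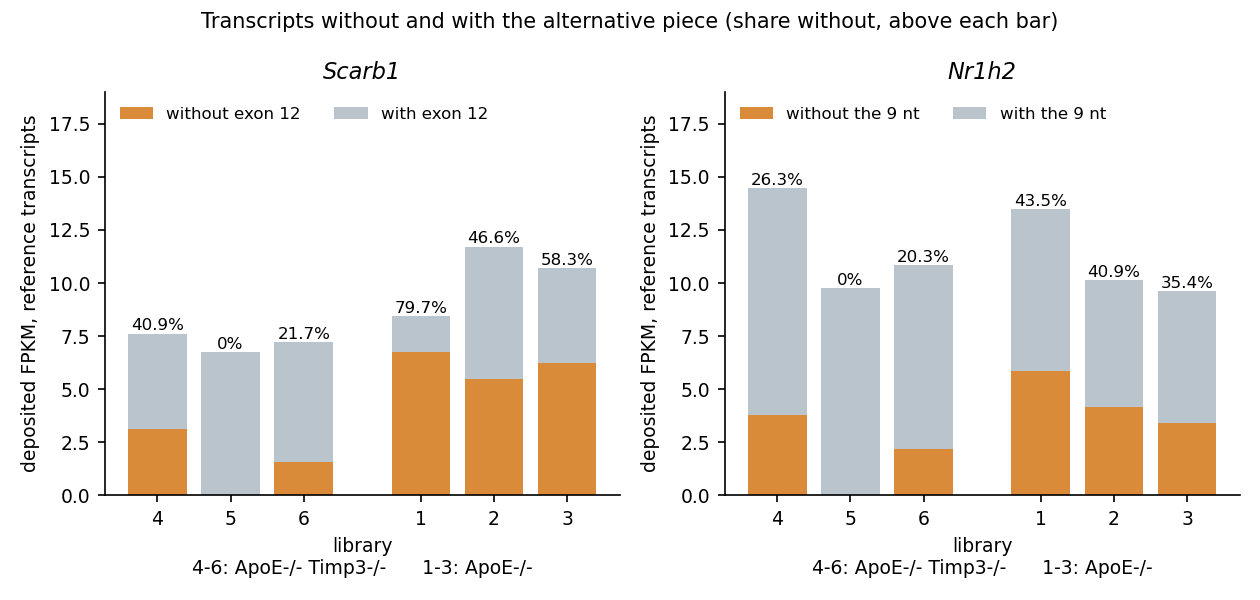
Deposited FPKM of reference transcripts without (orange) and with (grey) the alternative piece, stacked by library, for Scarb1 (exon 12) and Nr1h2 (9 nt), with libraries 4 to 6 (ApoE-/- Timp3-/-) left of libraries 1 to 3 (ApoE-/-) and the share without the piece printed above each bar. For Scarb1 that share runs between 0% and 40.9% in ApoE-/- Timp3-/- hearts and between 46.6% and 79.7% in ApoE-/- hearts.

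Mylip encodes IDOL, a ubiquitin ligase induced by the liver X receptors that sends lipoprotein receptors to degradation. Mylip (ENSMUSG00000038175, chr13:45485111-45507388, plus strand, NCBIM37) had 4.63, 6.76 and 6.81 FPKM in libraries 4, 5 and 6 (ApoE-/- Timp3-/-), against 7.78, 7.35 and 5.90 FPKM in libraries 1, 2 and 3 (ApoE-/-). On these sums library 4 was lowest and the other 5 lay together. Scaled, it averaged 6.26 ± 1.56 in ApoE-/- Timp3-/- hearts and 6.79 ± 0.458 in ApoE-/- hearts (SD, n = 3 each), a log2 difference of -0.12 ± 0.18 (SE) with a 95% interval of -0.54 to 0.29 and an adjusted p of 0.82 by limma. The sign rested on library 4, and the difference lay between -0.25 (library 5 left out) and 0.06 (library 4 left out). In library 5 an assembled piece of 2256 nt held 45.4% of the sum. The reference transcript alone was at 3.69 FPKM in library 5, below the 4.63 FPKM of library 4, and from it the difference was -0.38. Vldlr, a substrate of this ligase, is named after its values were seen. It had a scaled FPKM of 17.4, 29.6 and 31.6 in libraries 4, 5 and 6, against 30.0, 24.8 and 28.7 in libraries 1, 2 and 3 (log2 difference -0.12, adjusted p of 0.87 by limma).

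The liver X receptors are nuclear receptors for oxysterols, LXR alpha from Nr1h3 and LXR beta from Nr1h2. Nr1h3 (ENSMUSG00000002108, chr2:91024218-91042991, minus strand, NCBIM37) had 7.72, 8.0 and 8.75 FPKM in libraries 4, 5 and 6 (ApoE-/- Timp3-/-), against 10.3, 8.73 and 8.73 FPKM in libraries 1, 2 and 3 (ApoE-/-). The groups met at library 6. Scaled, Nr1h3 averaged 8.37 ± 0.724 in ApoE-/- Timp3-/- hearts and 8.98 ± 0.43 in ApoE-/- hearts (SD, n = 3 each), a log2 difference of -0.09 ± 0.11 (SE). The 95% interval of -0.36 to 0.17 was the narrowest of the 9 genes, and the adjusted p was 0.78 by limma. The difference lay between -0.14 (library 5 left out) and -0.03 (library 4 left out). Its messages ENSMUST00000002177 and ENSMUST00000111354 differ in the bounds of their first exon and in where they end. Their log2 differences were -0.15 and -0.03, with adjusted p of 0.86 and 0.99 by limma.

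Nr1h2 (ENSMUSG00000060601, chr7:51804986-51809321, minus strand, NCBIM37) had 14.4, 9.78 and 10.8 FPKM in libraries 4, 5 and 6 (ApoE-/- Timp3-/-), against 13.5, 10.1 and 9.62 FPKM in libraries 1, 2 and 3 (ApoE-/-). Libraries 4 and 1 were the highest of their groups and the groups overlapped. Scaled, Nr1h2 averaged 11.9 ± 1.91 in ApoE-/- Timp3-/- hearts and 10.7 ± 0.773 in ApoE-/- hearts (SD, n = 3 each), a log2 difference of 0.14 ± 0.14 (SE) with a 95% interval of -0.19 to 0.46 and an adjusted p of 0.74 by limma. It lay between 0.02 (library 4 left out) and 0.20 (library 6 left out).

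The single Nr1h2 transcripts varied more than their sum. ENSMUST00000107911 was listed at 0 in libraries 4, 5 and 6 (ApoE-/- Timp3-/-), against 5.86, 4.15 and 2.12 FPKM in libraries 1, 2 and 3 (ApoE-/-). For library 3, the lowest control, the deposited 95% interval of Cufflinks ran from 1.52 to 2.72 FPKM. It did not pass the test over all transcripts (adjusted p of 0.13 by limma, and from 0.12 to 0.40 over its alternatives). ENSMUST00000073488 went the other way, with 6.93, 5.59 and 8.63 FPKM in libraries 4, 5 and 6, against 0, 1.90 and 4.56 FPKM in libraries 1, 2 and 3, with a log2 difference of 1.66 (adjusted p of 0.58 by limma). In both transcripts the groups were apart, in opposite directions.

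ENSMUST00000107912 had 3.72, 4.19 and 0 FPKM in libraries 4, 5 and 6, against 7.62, 4.09 and 1.66 FPKM in libraries 1, 2 and 3. ENSMUST00000107910 had 3.79, 0 and 2.20 FPKM in libraries 4, 5 and 6, against 0, 0 and 1.28 FPKM in libraries 1, 2 and 3. The groups overlapped in both. The 4 transcripts share most of their sequence and differ at their ends, in a few bases of another exon and in a stretch of 9 nt at the start of exon 5 of the 10-exon forms, present in ENSMUST00000107912 and ENSMUST00000073488 and absent from ENSMUST00000107911 and ENSMUST00000107910. The stretch is shown because it tells these forms apart, in capitals (chr7:44552237-44552245 in GRCm38, minus strand) with 24 nt on each side in lower case, from the GENCODE M21 transcripts.
Nr1h2 with the 9 nt: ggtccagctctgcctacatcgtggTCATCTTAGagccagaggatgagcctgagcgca
Nr1h2 without the 9 nt: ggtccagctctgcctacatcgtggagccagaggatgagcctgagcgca

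Transcripts without the 9 nt made up 26.3%, 0% and 20.3% of Nr1h2 FPKM in libraries 4, 5 and 6 (ApoE-/- Timp3-/-), against 43.5%, 40.9% and 35.4% in libraries 1, 2 and 3 (ApoE-/-). The groups did not overlap here either. The 8.98% given above is for shares of single transcripts, whereas this share also pools 2. This share too was chosen after its values were seen, so the same exact permutation p of 0.1 could not decide here either. The p was also 0.1 when adjusted over the 2 shares, which does not account for that choice. Over all members, 14 reference transcripts were tested. Of these, 0 passed an adjusted p of 0.05 by limma, against 0.128% of all transcripts, and 3 had an unadjusted p under 0.05, against 8.25%. The scaled values of the groups did not overlap for 4 of the 14, against 15.3% of all transcripts; they were ENSMUST00000111390 of Scarb1, ENSMUST00000024829 of Abcg1 and ENSMUST00000107911 of Nr1h2, which were lower in ApoE-/- Timp3-/- hearts, and ENSMUST00000073488 of Nr1h2, which was higher.

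Abca1 encodes the transporter that loads cholesterol and phospholipid onto lipid-poor apolipoprotein A-I. Abca1 (ENSMUSG00000015243, chr4:53043659-53172767, minus strand, NCBIM37) had 4.29, 5.10 and 9.34 FPKM in libraries 4, 5 and 6 (ApoE-/- Timp3-/-), against 7.94, 6.65 and 6.26 FPKM in libraries 1, 2 and 3 (ApoE-/-). The ApoE-/- Timp3-/- hearts lay on both sides of the controls, which were close together. Scaled, Abca1 averaged 6.37 ± 2.59 in ApoE-/- Timp3-/- hearts and 6.73 ± 0.114 in ApoE-/- hearts (SD, n = 3 each), a log2 difference of -0.13 ± 0.23 (SE) with a 95% interval of -0.68 to 0.43 and an adjusted p of 0.87 by limma. The difference lay between -0.39 (library 6 left out) and 0.10 (library 4 left out), and with libraries weighted by their spread it was 0.00045.

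In each library between 49.2% and 83.1% of Abca1 FPKM came from assembled pieces, most of them at the 3′ end. The reference transcript (ENSMUST00000030010, 10262 nt) was at 0.726, 2.59 and 1.79 FPKM in libraries 4, 5 and 6, against 3.75, 1.82 and 2.42 FPKM in libraries 1, 2 and 3. The level over the fifth of the transcript at its 3′ end was 5.92, 1.97 and 2.76 times that over the fifth at its 5′ end in libraries 4, 5 and 6, against 2.12, 3.66 and 2.59 times in libraries 1, 2 and 3. Library 4 was the most uneven, and it also had the largest share of long genes with a ratio over 1.5, at 25.3% against 13.6% and 14.9% in libraries 5 and 6 and 14.8% to 21.1% in ApoE-/- hearts. The part of this unevenness in the Abca1 values was not tested. On the length-weighted level the log2 difference was -0.27.

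Abcg1 encodes the transporter that passes cholesterol to HDL. Abcg1 (ENSMUSG00000024030, chr17:31194643-31252722, plus strand, NCBIM37) had 0.807, 1.53 and 0.974 FPKM in libraries 4, 5 and 6 (ApoE-/- Timp3-/-), against 2.43, 1.76 and 1.14 FPKM in libraries 1, 2 and 3 (ApoE-/-). Library 1 was highest, and library 5 lay among the controls. Scaled, it averaged 1.15 ± 0.485 in ApoE-/- Timp3-/- hearts and 1.69 ± 0.428 in ApoE-/- hearts (SD, n = 3 each), a log2 difference of -0.33 ± 0.21 (SE) with a 95% interval of -0.82 to 0.15 and an adjusted p of 0.59 by limma, on a scale that understates the change of so low a gene. It lay between -0.51 (library 5 left out) and -0.21 (library 4 left out), and was -0.55 at a pseudocount of 0.1, -0.12 at a pseudocount of 5 and -0.09 with libraries weighted by their spread. In library 5 a single-exon piece of 2179 nt held 39.8% of the sum. The reference transcript alone (ENSMUST00000024829) was at 0.807, 0.920 and 0.974 FPKM in libraries 4, 5 and 6, each below the controls, with a log2 difference of -0.47 (adjusted p of 0.66 by limma over transcripts).

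Npc1 encodes the membrane protein that exports cholesterol from late endosomes and lysosomes. Npc1 (ENSMUSG00000024413, chr18:12348202-12394909, minus strand, NCBIM37) had 3.63, 6.32 and 11.7 FPKM in libraries 4, 5 and 6 (ApoE-/- Timp3-/-), against 9.97, 2.89 and 3.87 FPKM in libraries 1, 2 and 3 (ApoE-/-). Libraries 1, 5 and 6 were high and libraries 2, 3 and 4 low, a division that crosses the genotypes. Scaled, Npc1 averaged 7.40 ± 4.04 in ApoE-/- Timp3-/- hearts and 5.20 ± 2.96 in ApoE-/- hearts (SD, n = 3 each), a log2 difference of 0.42 ± 0.44 (SE) with a 95% interval of -0.61 to 1.45, the widest of the 9, and an adjusted p of 0.74 by limma. The difference ran from 0.07 when library 6 was left out to 0.80 when library 4 was, with 0.14 for library 2 and 0.78 for library 1.

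The atrial muscle markers Myl7 and Myl4 divided the libraries in the same way. Myl7, the atrial myosin light chain, had a scaled FPKM of 13.1, 193 and 226 in libraries 4, 5 and 6, against 351, 2.07 and 1.31 in libraries 1, 2 and 3. Myl4 had a scaled FPKM of 19.7, 155 and 236 in libraries 4, 5 and 6, against 270, 9.79 and 6.86 in libraries 1, 2 and 3. Both were high in libraries 1, 5 and 6, as Npc1 was. All 5 atrial markers had a difference of 0 or above. Their summed scaled FPKM was 173 to 1439 in ApoE-/- Timp3-/- hearts and 122 to 1455 in ApoE-/- hearts. Nppa went against the division, with a scaled FPKM of 796 in library 2. Bmp10 followed it weakly, with a scaled FPKM of 0.408, 11.2 and 32.1 in libraries 1, 5 and 6, against 0.0216, 0.181 and 0 in libraries 2, 3 and 4. Libraries 1, 5 and 6 also had the least depth, at 654, 732 and 683 megabases, against 1339, 827 and 910 for libraries 2, 3 and 4. The share of bases given to a gene was 80.1%, 81.1% and 79.5% in libraries 1, 5 and 6. It was 75.5%, 74.7% and 75.7% in libraries 2, 3 and 4. The part of atrial tissue or of depth in the Npc1 values was not tested.

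Pieces assembled in 1 library held between 50.1% and 81.5% of Npc1 FPKM. On the length-weighted level Npc1 was at 3.35, 5.79 and 6.37 in libraries 4, 5 and 6, against 6.86, 2.57 and 3.44 in libraries 1, 2 and 3, so the same 3 libraries were high on a narrower range. The exons of Npc1 share 192 nt with those of Rmc1 on the plus strand, and whether counting used strand was not given in the sources used here. From its reference transcripts alone, Rmc1 had 5.44, 4.56 and 5.6 FPKM in libraries 4, 5 and 6, against 3.82, 3.41 and 4.28 FPKM in libraries 1, 2 and 3. Each ApoE-/- Timp3-/- heart lay above each ApoE-/- heart on these values, which leave out assembled pieces. Deposited gene sums lay so for 5.20% of all genes (14.9% in either direction), an unlike measure, since those sums include assembled pieces. Pieces assembled on the plus strand over the end of Npc1 were listed at 5.00, 0 and 0 FPKM in libraries 4, 5 and 6, against 2.58, 2.38 and 2.90 FPKM in libraries 1, 2 and 3. With them added, the length-weighted Npc1 level was 4.55, 5.79 and 6.37 in libraries 4, 5 and 6, against 7.45, 3.23 and 4.13 in libraries 1, 2 and 3, with libraries 1, 5 and 6 the highest. The part of reads from the plus strand in the Npc1 values was not tested.

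Npc2 encodes the small soluble protein that carries cholesterol to NPC1 inside the lysosome. Npc2 (ENSMUSG00000021242, chr12:86095510-86114062, minus strand, NCBIM37) had 7.74, 6.45 and 6.81 FPKM in libraries 4, 5 and 6 (ApoE-/- Timp3-/-), against 13.0, 8.18 and 6.43 FPKM in libraries 1, 2 and 3 (ApoE-/-). The ApoE-/- Timp3-/- hearts were close together, and library 1 stood above the other 5. Scaled, Npc2 averaged 7.16 ± 0.417 in ApoE-/- Timp3-/- hearts and 8.76 ± 2.17 in ApoE-/- hearts (SD, n = 3 each), a log2 difference of -0.24 ± 0.17 (SE) with a 95% interval of -0.63 to 0.16 and an adjusted p of 0.64 by limma. It lay between -0.37 (library 3 left out) and -0.07 (library 1 left out). All of the value came from 1 reference transcript of 3261 nt, and FPKM is set by that length. Macrophage markers were highest in the same library, with a summed scaled FPKM of 70.8 to 86.6 in ApoE-/- Timp3-/- hearts, against 157, 70.0 and 60.0 in libraries 1, 2 and 3. Lyz2, the lysozyme of macrophages, had a scaled FPKM of 27.1, 33.2 and 39.8 in libraries 4, 5 and 6, against 81.6, 31.3 and 25.6 in libraries 1, 2 and 3. The part of macrophages in the Npc2 values was not tested.

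**Figure D5:**
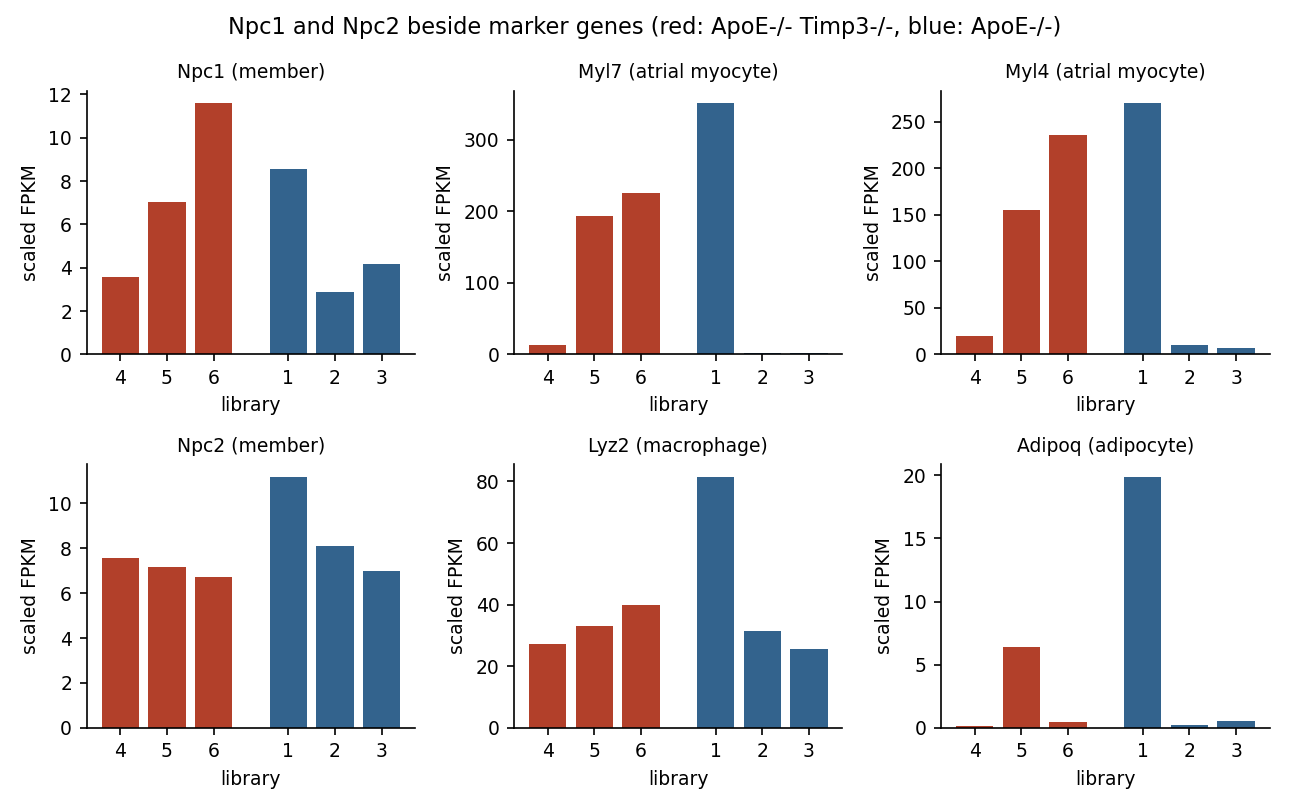
Scaled FPKM by library (bars, from 0; ApoE-/- Timp3-/- libraries 4 to 6 in red, ApoE-/- libraries 1 to 3 in blue) of Npc1 beside the atrial markers Myl7 and Myl4, and of Npc2 beside the macrophage marker Lyz2 and the adipocyte marker Adipoq. Npc1, Myl7 and Myl4 are each highest in libraries 1, 5 and 6, and Npc2, Lyz2 and Adipoq in library 1.

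Around the 9 genes, no gene of the 5 pathway lists passed an adjusted p of 0.05 by limma. Among lipoprotein receptors and their partners, 12 of 20 genes passed the filter and their median log2 difference was -0.03. At an unadjusted p under 0.05, 0 of them were lower and 1 was higher, against 5.22% lower and 6.93% higher among all genes. The one that was higher was Scarb2, the lysosomal membrane protein LIMP2, at a scaled FPKM of 44.5 ± 4.43 in ApoE-/- Timp3-/- hearts and 34.1 ± 4.21 in ApoE-/- hearts (SD, n = 3 each; log2 difference 0.38, adjusted p of 0.36). Lrp5, a co-receptor for Wnt proteins, averaged 4.84 ± 0.483 in ApoE-/- Timp3-/- hearts and 6.06 ± 0.656 in ApoE-/- hearts. Stab1, a scavenger receptor of macrophages and endothelium, averaged 5.67 ± 0.189 in ApoE-/- Timp3-/- hearts and 4.53 ± 0.788 in ApoE-/- hearts. For these 3 genes the groups did not overlap, as for 19.2% of all genes, and the adjusted p was 0.36 to 0.46.

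Among partners and targets of the liver X receptors, 16 of 19 genes passed the filter, and their median log2 difference was -0.04, with 0 genes at an unadjusted p under 0.05 by limma in either direction. The smallest p belonged to Smpdl3a, a sphingomyelinase-like enzyme, at a scaled FPKM of 20.1 ± 0.95 in ApoE-/- Timp3-/- hearts and 23.2 ± 1.36 in ApoE-/- hearts (SD, n = 3 each; adjusted p of 0.54). Cd5l, a secreted macrophage protein, had a scaled FPKM of 0.0498, 0.234 and 0.336 in libraries 4, 5 and 6, against 7.66, 0.303 and 0.207 in libraries 1, 2 and 3. It thus stood out in library 1 alone. Lpcat3, a phospholipid-remodelling enzyme, averaged 8.92 ± 0.142 in ApoE-/- Timp3-/- hearts and 7.88 ± 1.80 in ApoE-/- hearts, with an adjusted p of 0.70.

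Among genes of intracellular sterol handling, 14 of 19 passed the filter, and their median log2 difference was 0.08. By limma, 1 had an unadjusted p under 0.05 and was lower, and 2 had one and were higher, against 5.22% lower and 6.93% higher among all genes. Lipa, the lysosomal acid lipase that frees cholesterol from its esters, had a scaled FPKM of 4.59, 5.78 and 6.17 in libraries 4, 5 and 6, against 8.12, 6.45 and 7.25 in libraries 1, 2 and 3. Each ApoE-/- Timp3-/- heart was below each ApoE-/- heart, as for 9.22% of all genes, with a log2 difference of -0.35 (adjusted p of 0.39). The higher ones were Scarb2, which this list shares with the receptors, and Scp2, a sterol carrier protein, at 42.1 ± 3.12 in ApoE-/- Timp3-/- hearts and 33.6 ± 4.24 in ApoE-/- hearts (SD, n = 3 each; adjusted p of 0.40). Gramd1a, which moves cholesterol from the plasma membrane to the endoplasmic reticulum, averaged 6.13 ± 1.14 in ApoE-/- Timp3-/- hearts and 4.84 ± 1.09 in ApoE-/- hearts (adjusted p of 0.59).

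Among genes of HDL and lipoprotein remodelling, 8 of 13 passed the filter, and their median log2 difference was 0.09, with 0 at an unadjusted p under 0.05 by limma in either direction. Angptl4, an inhibitor of lipoprotein lipase, had a scaled FPKM of 6.10, 6.91 and 3.09 in libraries 4, 5 and 6, against 6.27, 1.11 and 0.524 in libraries 1, 2 and 3, with library 1 among the ApoE-/- Timp3-/- hearts (adjusted p of 0.50). Abca5, a transporter of the ABCA1 family, averaged 1.48 ± 0.316 in ApoE-/- Timp3-/- hearts and 1.06 ± 0.219 in ApoE-/- hearts, with an adjusted p of 0.58. Abca7 averaged 1.79 ± 0.728 in ApoE-/- Timp3-/- hearts and 1.43 ± 0.361 in ApoE-/- hearts (SD, n = 3 each; adjusted p of 0.79). Pltp, the phospholipid transfer protein, had a scaled FPKM of 20.5, 18.6 and 17.7 in libraries 4, 5 and 6, against 23.9, 23.7 and a listed 0 in libraries 1, 2 and 3.

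SREBP-2 and the enzymes of sterol synthesis are switched on by cells when sterols are scarce. Of 21 listed symbols of this group, of which Sc4mol and Msmo1 name the same gene, 18 were found in the data and 11 passed the filter. The median log2 difference of the 11 was -0.24. By limma, 2 had an unadjusted p under 0.05 and were lower, and 0 had one and were higher, beside the same 5.22% and 6.93% of all genes. Srebf2, which encodes SREBP-2, had a scaled FPKM of 2.13, 2.20 and 2.13 in libraries 4, 5 and 6, against 3.05, 3.29 and 3.16 in libraries 1, 2 and 3. The groups did not overlap, as for 9.22% of all genes in that direction, and the log2 difference was -0.40 (adjusted p of 0.26). Cyp51, a demethylase of the pathway, averaged 1.53 ± 0.204 in ApoE-/- Timp3-/- hearts and 2.22 ± 0.106 in ApoE-/- hearts (SD, n = 3 each; adjusted p of 0.35). Insig1, which holds SREBP precursors in the endoplasmic reticulum, was highest in library 1. Its scaled FPKM was 3.43, 3.10 and 3.06 in libraries 4, 5 and 6, against 8.14, 3.98 and 3.74 in libraries 1, 2 and 3. Dhcr7, the last reductase of the pathway, averaged 1.49 ± 0.349 in ApoE-/- Timp3-/- hearts and 2.02 ± 0.448 in ApoE-/- hearts (adjusted p of 0.59).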

How the data were processed

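The authors deposited 1 transcript file per library with the FPKM, read coverage and 95% interval of each reference and assembled transcript (read from the attributes field). Per the submitters' processing notes the tools were Bowtie, TopHat and Cufflinks and the build was NCBIM37, versions not stated. The authors' FPKM are normalized within each library. No reads per gene were used, so no count test or counting interval is given.

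Of the 94670 reference transcripts, 82348 matched a gene through their transcript ID, and most others through the file's gene ID or an exon overlap of at least 50%. Assembled transcripts of at least 300 nt joined a gene by the same overlap (39022 of 70603). GENCODE M21 (GRCm38) served for names, exon structures and printed sequences alone, and coordinates are otherwise NCBIM37. All 9 members matched. FPKM were summed by gene. Genes with a mean FPKM of at least 1 were tested (11356), after median-of-ratios scaling, as log2(scaled FPKM + 1) with limma 3.58.1 in R 4.3.3, intensity trend, two-sided, Benjamini-Hochberg adjustment over all genes at 0.05. This scale understates changes of low genes. Transcripts were fitted likewise (12456). An FPKM of 0 can be a failed estimate.

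Members, lists and tests were chosen with earlier results of these data known. Named genes were the 9 members, Timp3 and Apoe, each list's genes past the threshold or else its 4 with the smallest p, the 3 nearest to the member with the smallest p, and markers; a few genes under this rule are not reported here. Alternatives covered scaling, pseudocount, filter, transcripts summed, library weights and leaving out each library. A level weighted by transcript length (each FPKM times its length, over the length of the strongest reference transcript) was added after the data were seen.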

Additional observations from a re-analysis of the deposited data

How the results depend on the processing

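Over 17 alternatives 0 of the 9 members and over 14 alternatives 0 of their transcripts passed an adjusted p of 0.05 by limma. At an unadjusted p under 0.05, between 0 and 2 members were reached under an alternative. The lowest adjusted p of any member was 0.077, for Lrp1 with libraries weighted by their spread, and Scarb1 reached 0.12 there. The members' median stayed below 0, between -0.29 (scaling to a fixed total, which moved the median of all genes to -0.16) and -0.07, and between -0.24 and -0.03 with a library left out. Signs turned for Nr1h2 (-0.04, scaling to a fixed total), for Scarb1 (0.50, its strongest transcript alone, the form with exon 12), for Abca1 (0.00045 with library weights, and -0.39 to 0.10 with a library left out, the highest without library 4) and for Mylip (0.05 with library weights, and -0.25 to 0.06 with a library left out, the highest without library 4). From the strongest reference transcript alone, Nr1h2 was 1.64 higher on the log2 scale. The count of all genes past the threshold, 5, was 3 at a pseudocount of 0.1, 2 at a pseudocount of 5, 9 with no filter, 1 at a mean FPKM of at least 5 (where Abcg1 was not tested), 99 with library weights, 8 on the length-weighted level, and 3 to 11 with a library left out; the cause was not tested. No paired analysis was possible because the groups share no library number. The 95% interval of a member's difference was between -0.36 and 0.17 at its narrowest (Nr1h3) and between -0.61 and 1.45 at its widest (Npc1), which bounds what 3 against 3 libraries can show.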

Other observations

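Some genes of sterol synthesis and transport lay below the filter and entered no comparison. Fdft1, squalene synthase, was listed at 5.97 FPKM in library 4 and at 0 in the other 5 libraries. Abcg5, a sterol transporter of liver and gut, was listed at 0 in all 6.

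Scd1 and Fasn, lipogenic targets of the liver X receptors, were high in 1 library of each genotype, and are named after their values were seen, as are Srebf1 and Adipoq. Scd1, which desaturates fatty acids, had a scaled FPKM of 2.11, 71.7 and 5.58 in libraries 4, 5 and 6, against 169, 5.6 and 3.78 in libraries 1, 2 and 3. Fasn, fatty acid synthase, had a scaled FPKM of 2.10, 15.6 and 3.07 in libraries 4, 5 and 6, against 55.9, 4.34 and 2.50 in libraries 1, 2 and 3. Adipoq, the fat cell hormone adiponectin, had a scaled FPKM of 0.156, 6.38 and 0.445 in libraries 4, 5 and 6, against 19.9, 0.245 and 0.512 in libraries 1, 2 and 3. These 3 were highest in library 1 and next in library 5. Srebf1, a further lipogenic target, was not raised in library 5. Its scaled FPKM was 8.53, 6.58 and 6.69 in libraries 4, 5 and 6, against 9.91, 7.0 and 6.02 in libraries 1, 2 and 3. The part of adipocytes in these values was not tested.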
